A study of Mus musculus with 12 samples.

Results

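B cells of control mice that secreted IL-10 were compared with B cells of the same kind of culture that did not: 3 arrays of IL-10+ cells were set against 3 arrays of IL-10- cells, 6 of the 12 arrays of the series, chosen by their sample titles alone. The B cells came from spleens of female Balb/c animals. Both groups were cultured with a CD40 agonist for 2 days and received LPS, a bacterial ligand of Toll-like receptor 4, for the last 5 hours. A secretion assay then caught IL-10 at the surface of the cells that released it, and flow cytometry separated the stained from the unstained cells. The remaining 6 arrays hold the same sort from mice with an allergy to house dust mite (HDM), and they enter here for the estimate of the spread and for values side by side. The labels give neither what the control mice received nor whether the 3 samples of each group were separate mice. The p-values therefore rest on a sample-to-sample spread, some of which could be technical. The IL-10- arm is not a resting population: it had the same CD40 agonist and LPS, and a cell that held Il10 mRNA without secreting enough protein for the stain would fall in it.

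IL-10 is a cytokine that dampens inflammation, chiefly by limiting antigen presentation and cytokine release by macrophages and dendritic cells. B cells have no fixed lineage of IL-10 producers, and those that secrete it, often called regulatory B cells, have been described with features of B-1 cells, marginal zone B cells and plasmablasts. Ligands of CD40 and of Toll-like receptors are the usual means of bringing out IL-10 in cultured B cells. CD9, a tetraspanin of the cell surface that appears in the title of the series, has been used as a marker of mouse B cells that can make IL-10.

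Each array probe is 60 bases long, and the values of a gene are those of 1 such probe. The first 30 bases are printed for the sort target, for Cd9 and for the 3 genes with a symbol that passed the test, since these sequences define which transcript end was read. All are written 5′ to 3′ in the sense of the transcript, with positions on genome build mm9 from the array files, and no letters are in capitals. The Il10 probe covers chr1:132920943-132921002 on the plus strand and the Cd9 probe chr6:125410387-125410446 on the minus strand. Those of Lgr4 and Epb41l1 cover chr2:109853567-109853626 and chr2:156363132-156363191, both on the plus strand. The Selplg probe covers chr5:114269206-114269265 on the minus strand.
Il10: ggaaaacctcgtttgtacctctctccgaaa
Cd9: cctgcaatgaaaggtactatatttgccaga
Lgr4: gctctgacatttccaaatttgttgaagtta
Epb41l1: actacagcatccagacatgctggtaaccaa
Selplg: attatcctcatcttggcttctctggccacc

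Levels are log2 processed signals relative to the 75th percentile of the array, so 0 is a signal at the 75th percentile and each unit is a doubling. A difference is the mean level of the IL-10+ arrays minus that of the IL-10- arrays, with the standard error (SE) of limma's fit to all 12 arrays. Genes with an adjusted p under 0.05 (Benjamini-Hochberg, 24939 genes) were called. The 6 control arrays had 51.6% to 62.4% of spots marked by the scanner as well above background, and IL-10+ array 2 was the lowest. Their levels correlated across genes at a mean r of 0.876 to 0.91 with the other control arrays, again lowest for IL-10+ array 2. Arrays resembled the other sort about as much as their own: the mean r of IL-10+ array 1 was 0.912 within its group and 0.907 with the IL-10- arrays, while each IL-10- array correlated slightly more with the IL-10+ arrays (0.889 to 0.899) than with its own group (0.888 to 0.891). IL-10- array 3 lay on the second slide and the other 5 control arrays on the first, so differences within the first slide, from 3 arrays against 2, are given beside those of all 6. As the samples were amplified mRNA of sorted populations, fewer cells that express a gene and less RNA per cell cannot be told apart.

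Il10, the target of the sort, checks the labels. Its level was 6.97, 7.57 and 6.92 on the IL-10+ arrays, and 1.12, 0.69 and -0.04 on the IL-10- arrays. The groups lie far apart, and the transcript was well above background on every array, the IL-10- arrays included. The means were 7.15 ± 0.37 and 0.59 ± 0.59 (SD, n = 3 each), a difference of 6.56 (SE 1.18), or 94.6-fold. This did not pass the test across all genes, with limma's adjusted p at 0.225, and the exact two-sided permutation test gave 0.1, the smallest value that 3 against 3 arrays allow. Within the first slide the difference was 6.25 (SE 0.45). The SE of the 12-array fit is set in part by the HDM arrays, and without IL-10- HDM array 3 the same difference of 6.56 had limma's adjusted p at 0.000466.

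Cd9 showed the same separation at lower signals. The IL-10+ arrays read 0.89, 2.70 and 1.25, and the IL-10- arrays read -4.54, -2.04 and -2.97. Only 2 of the 3 IL-10- arrays had Cd9 well above background. The difference was 4.80 (SE 0.80), with limma's adjusted p at 0.191, and 3.14 with the normexp background correction. That correction also adds an offset of 50 to each signal, which narrows differences between dim signals. With 1 IL-10- array near background, no fold is given. The exact two-sided permutation test again gave 0.1. The difference was 4.90 within the first slide, so the array on the second slide did not enlarge it.

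**Figure D1:**
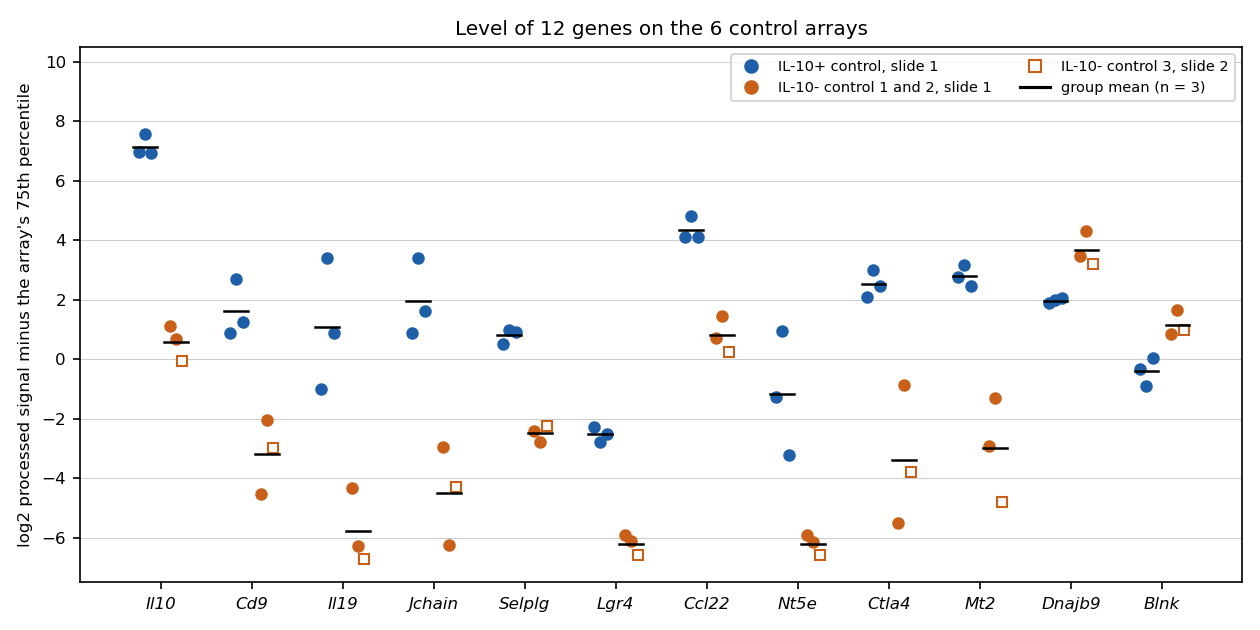
Level of 12 genes on each control array, as log2 of the signal over the array's 75th percentile (vertical axis), for IL-10+ arrays (blue circles), IL-10- arrays 1 and 2 (orange circles) and IL-10- array 3 of the second slide (open squares), with the mean of each group as a black line. Il10 and Ccl22 are separated with every array well above background, while Cd9, Il19 and Jchain have IL-10- arrays near the lower limit of the signal, and Dnajb9 and Blnk lie lower in the IL-10+ cells.

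Across all genes the sorted populations differed little beyond the spread of the arrays. Limma called 4 of 24939 genes (0.016%), all higher in IL-10+ cells, and no gene lower, while 1013 (4.06%) had an unadjusted p under 0.05, 560 of them higher (2.25%) and 453 lower (1.82%). Arrays of the 2 groups did not overlap for 2356 genes (9.45%), of which 1184 were higher in IL-10+ cells (4.75%) and 1172 lower (4.7%). Fewer genes had a positive difference, 11664, than a negative one, 13275, and the median difference was -0.04. With each array scaled to its median in place of the 75th percentile, all differences moved up by 0.14, the share of positive differences went from 46.8% to 57.9%, and the share of higher genes among those with an unadjusted p under 0.05 went from 55.3% to 67.0%. The directions of gene lists below are therefore to be read against the median of all tested genes, and a list median between -0.14 and 0 turns positive under the other scale. Within the first slide no gene was called, with 1327 (5.32%) at an unadjusted p under 0.05, and the same count over only the 6 control arrays was 1221 (4.9%), also with no gene called by limma. Over all 8 arrays of the first slide, a fit chosen after the data were seen, 3 genes (0.012%) passed limma's test, and the count at an unadjusted p under 0.05 was 1657 (6.64%).

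The called genes were Selplg, Lgr4, Epb41l1 and a predicted transcript that the files name only by its Ensembl identifier, ENSMUST00000100326. When each of the 12 arrays was left out in turn, that transcript was called 12 times, Lgr4 11 times, Epb41l1 4 times and Selplg 3 times, and without IL-10+ control array 3 the predicted transcript was the 1 gene called. Selplg encodes PSGL-1, the leukocyte ligand of the selectins, which carries cells along vessel walls. Its level was 0.51, 0.99 and 0.91 on the IL-10+ arrays, against -2.42, -2.79 and -2.25. All 6 arrays were well above background, so this is a measured change on both sides: Selplg rose by 3.28 (SE 0.39), or 9.74-fold, with limma's adjusted p at 0.0423. Within the first slide the difference was 3.40. A second Selplg probe, toward the transcript's end, differed by 2.72 (SE 0.9) in the same direction, but only 1 IL-10- array had it well above background.

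Lgr4, a receptor for R-spondins that strengthens Wnt signalling, was read at -2.27, -2.79 and -2.52 on the IL-10+ arrays. The IL-10- arrays gave -5.89, -6.12 and -6.57, and none of these was well above background. So the IL-10- level is only a bound: Lgr4 was at least 2.92-fold higher in IL-10+ cells, and the fitted difference of 3.67 (SE 0.33; limma's adjusted p 0.00619) is not a fold. Such bounds set the mean of the higher group against the lowest signal that was still well above background on each array of the lower group. Epb41l1, a relative of the erythrocyte membrane skeleton protein 4.1, had the same form, with -3.10, -3.58 and -3.26 against -6.06, -6.26 and -6.73. It was at least 1.69-fold higher, with a fitted difference of 3.04 (SE 0.34; limma's adjusted p 0.0338). This probe was well above background on no other group's arrays, HDM included, so it entered the test only through the group where it was high; with no filter on dim probes, another Epb41l1 probe was taken, with a difference of 0.35 that was not called. The call on both genes depends on how signals near background were treated. With the normexp correction and its offset of 50, the differences were 0.80 for Lgr4 and 0.65 for Epb41l1. Limma then called neither, with adjusted p at 0.371 and 0.563. The offset alone narrows differences between such dim signals, and its part was not tested apart from the background correction.

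ENSMUST00000100326, at chr11:106022413-106022472 of mm9, had the smallest p of the contrast and is named here after its values were seen. It read -1.26, -1.06 and -0.98 on the IL-10+ arrays and -5.73, -5.54 and -5.45 on the IL-10- arrays, none of the latter well above background. The transcript was at least 7.86-fold higher in IL-10+ cells, with a fitted difference of 4.47 (SE 0.35; limma's adjusted p 0.00325). It too entered the test only through the IL-10+ control arrays; with no filter on dim probes ENSMUST00000100326 was still called, at the same 4.47 (limma's adjusted p 0.0033). In HDM mice it was not well above background on any array, with a difference of -0.14.

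**Figure D2:**
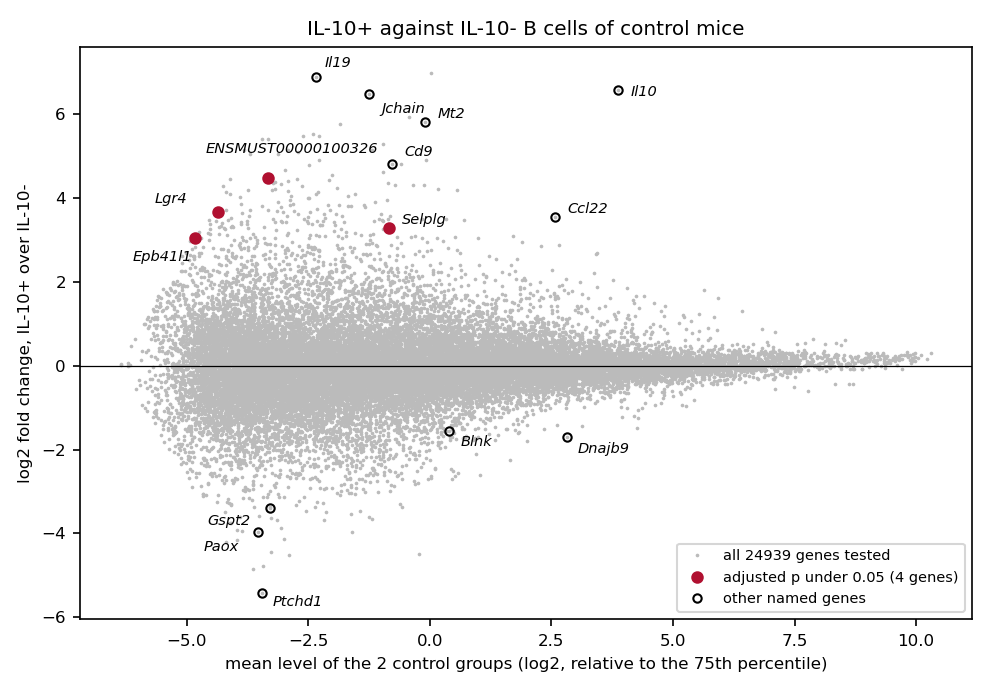
Mean level over the 6 control arrays (horizontal axis, log2 over the 75th percentile) against the difference between IL-10+ and IL-10- cells (vertical axis, log2) for 24939 genes in grey. The 4 called genes are in red and the other named genes are open circles; large differences in both directions lie mostly at low mean levels.

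The spread of a gene depended on its signal. For the 16515 genes well above background on all 6 control arrays, the median SD within a group was 0.54, and 2.85% had an unadjusted p under 0.05. For the 1793 genes well above background on 4 of the 6 arrays, the median SD was 1.40 and that share 8.76%. A gene was therefore read with least error where every array detected it, and 3 of the 12 leading higher genes and 2 of the 12 leading lower genes were of that kind. A further probe of the same gene, where one passed the filter, had the same sign as the chosen probe in 62.4% of 12704 cases.

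The 12 higher and 12 lower genes described next had the smallest unadjusted p among genes with a symbol and no overlap of the arrays, and that choice fixes their direction. Apart from Selplg, Lgr4 and Epb41l1 none was called. Among secreted proteins, Ccl22, a chemokine that attracts regulatory and Th2 cells through CCR4, read 4.1, 4.82 and 4.12 on the IL-10+ arrays and 0.73, 1.44 and 0.24 on the IL-10- arrays. All arrays were well above background, the difference was 3.54 (SE 0.58), or 11.7-fold, and limma's adjusted p was 0.19. Il19, a relative of Il10 encoded beside it, read -1.0, 3.42 and 0.88 against -4.32, -6.27 and -6.71. The IL-10+ arrays were spread over more than 4 units, none of the IL-10- arrays was well above background, and the level was at least 36.1-fold higher (limma's adjusted p 0.125). A second Il19 probe was dimmer, at -4.88, -0.2 and -3.63 on the IL-10+ arrays, 2 of them well above background. Its difference was 2.99. Jchain, the joining chain of secreted IgM and IgA and a plasmablast gene, read 0.88, 3.41 and 1.61 against -2.95, -6.24 and -4.30, a difference of 6.46 (SE 0.88; limma's adjusted p 0.0825).

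Inside the cell, Psmb10, a catalytic subunit of the immunoproteasome, gave nearly the same level on each IL-10+ array, -0.23, -0.25 and -0.28. The IL-10- arrays read -3.40, -3.39 and -2.12, and the difference was 2.72 (SE 0.37), or 6.58-fold, with limma's adjusted p at 0.0825. IL-10- array 3 lay closest to the IL-10+ cells, and within the first slide the difference was 3.15. Mt2, a metal-binding metallothionein, read 2.76, 3.18 and 2.46 against -2.91, -1.29 and -4.79, a difference of 5.80 (SE 0.80; limma's adjusted p 0.0825). Its lowest value was on IL-10- array 3, and without that array the difference was 4.90. Csf2rb2, a beta chain of the mouse IL-3 receptor, read -1.09, -0.61 and -1.79 against -4.34, -4.97 and -5.88, at least 7.51-fold higher with no IL-10- array well above background. A second Csf2rb2 probe differed by 2.23 and was well above background on only 1 IL-10+ array and on no IL-10- array. Slc16a13, a monocarboxylate transporter, was at least 3.21-fold higher and Fars2, the mitochondrial phenylalanyl-tRNA synthetase, at least 3.89-fold higher, both also without a detected IL-10- array. Slc16a13 was well above background on no HDM array, so it entered the test only through the group where it was high. Its difference ranged from 0.93 to 3.69 over the alternative settings.

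Of the 12 leading lower genes only Dnajb9 and Blnk were well above background on every control array. Dnajb9, a chaperone of the endoplasmic reticulum induced by the unfolded protein response, read 1.88, 1.98 and 2.07 on the IL-10+ arrays and 3.46, 4.32 and 3.21 on the IL-10- arrays. The difference was -1.69 (SE 0.35), and -1.91 within the first slide, with limma's adjusted p at 0.313. Blnk, the adaptor that links the B cell receptor to phospholipase C, read -0.34, -0.91 and 0.04 against 0.86, 1.67 and 0.97, a difference of -1.57 (SE 0.34; limma's adjusted p 0.399). For 9 of the 12 lower genes, no IL-10+ array was well above background, so their levels there are bounds. Gspt2, a relative of the translation termination factor eRF3, read -4.72, -4.31 and -5.90 against -1.97, -1.48 and -1.30, at least 5.51-fold lower. Ptchd1, a Patched-domain protein, read -6.07, -6.14 and -6.29 against -0.77, -0.11 and -1.35, at least 9.87-fold lower (limma's adjusted p 0.235).

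The number of genes switched between detected and undetected was alike in both directions. Well above background on all 3 IL-10+ arrays and on no IL-10- array were 66 genes (0.265%), and 74 genes (0.297%) had the opposite pattern. Among the former were Lgr4, Il19, Csf2rb2, Nt5e and Ptpn22, and among the latter Gspt2 and Chd3, a chromatin remodeller. The detection pattern was defined on the control arrays, but the HDM arrays had a part in the filter and in the choice of the brightest probe. The sort from HDM mice gave the same detection pattern for 8 of the 66 genes, against 264 of all tested genes (1.06%). For the 74 it did so for 4, against 91 of all tested genes (0.365%). Of the 66, the difference in HDM mice was also positive for 54, with a median of 1.46. Of the 74, it was also negative for 28, with a positive median of 0.29. Over all tested genes 14131 had a positive and 10682 a negative difference in HDM mice. In HDM mice, however, all IL-10+ arrays lay on the first slide and all IL-10- arrays on the second, so sort and slide cannot be told apart there.

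**Figure D3:**
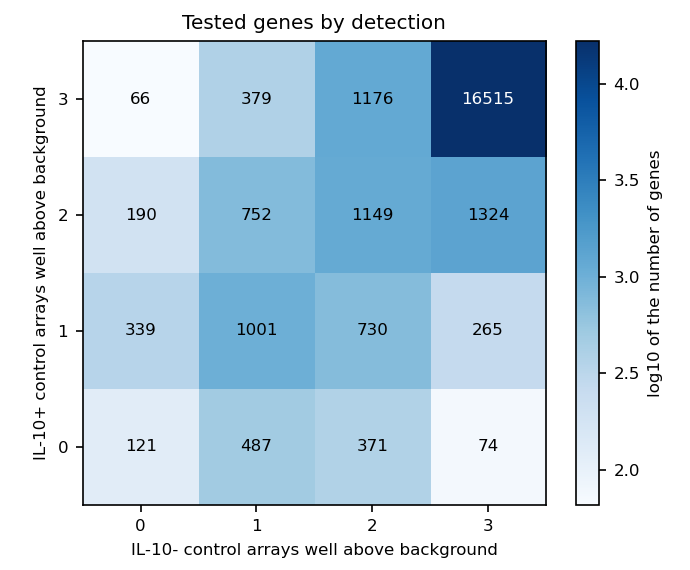
Number of tested genes by the number of IL-10+ control arrays (vertical axis) and IL-10- control arrays (horizontal axis) on which they were well above background. Of 24939 genes, 16515 were detected on all 6 arrays, and the corners with detection in a single sort hold 66 and 74 genes.

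Among regulatory B cell markers, 18 of 22 measured members had a positive difference and the median was 0.82, against -0.04 over all tested genes. Arrays did not overlap for 8 members, all higher in IL-10+ cells, where 4.75% of all tested genes were higher without overlap. None was called. The list holds Cd9, which the title names, and it does not hold Il10. Its 4 negative differences were those of Entpd1 (-1.15), Cd5 (-0.91), Il2ra (-0.02) and Havcr2 (-0.01). Cd1d1 (0.1) and Cd274 (0.04) were among the smallest positive ones. As for all lists here, members were chosen with earlier results of these data known. Ctla4, an inhibitory receptor that binds CD80 and CD86, read 2.11, 2.99 and 2.46 against -5.51, -0.86 and -3.80, a difference of 5.91 (SE 1.14; limma's adjusted p 0.253). Tigit, another inhibitory receptor, read 1.03, 2.16 and 1.83 against -3.51, -6.04 and -1.24, a difference of 5.27 (SE 1.43), or 3.05 with the normexp correction. Of the IL-10- arrays, 1 had Tigit well above background, so the difference depends on signals near background. These IL-10- values are spread over several units, and the separation from the IL-10+ arrays is nonetheless complete for both genes. Ctla4, like Jchain, Mt2, Bhlhe41 and Cd70, was well above background on 2 of the 3 IL-10- arrays, and their differences carry the same limit.

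Havcr1 and Ebi3, of the same list and detected on every array, had smaller differences. Havcr1 encodes TIM-1, a marker of IL-10-competent B cells, and read 5.98, 5.59 and 5.84 against 4.72, 4.45 and 4.62. The difference was 1.21 (SE 0.33; limma's adjusted p 0.675). Ebi3, a subunit of the cytokines IL-27 and IL-35, read 5.40, 6.04 and 5.40 against 4.86, 4.61 and 4.36, a difference of 1.01 (SE 0.32; limma's adjusted p 0.919). Nt5e, or CD73, which makes adenosine from AMP at the cell surface, was detected on all 3 IL-10+ arrays at -1.25, 0.96 and -3.21 and on no IL-10- array, and was at least 7.51-fold higher. In the adenosine pathway to which it belongs, 7 of 12 members had a positive difference, with a median of 0.66 over the 6 arrays and of -0.02 without IL-10- array 2.

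The IL-10 family and its receptor, Il10 included, had a median of 0.3 over 13 genes, 8 of them positive; within the first slide, without IL-10- array 3, the median was 0.48 and 12 were positive. Il10ra, the ligand-binding chain of the receptor, was detected on 2 IL-10+ arrays and no IL-10- array, at -3.91, 1.63 and -0.96 against -5.98, -4.15 and -6.64. The highest IL-10- value lay close to the lowest IL-10+ value. Of 24 transcription factors that have been linked to Il10 induction, 15 had a positive difference and the median was 0.23. For Stat3 the sign of the difference turned to -0.14 when the probes of a gene were averaged.

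Genes of B-1 cells and of plasmablasts held further separated members. Of 16 B-1 cell genes, 10 had a positive difference, the median was 0.47, and arrays did not overlap for 6, all higher (4.75% of all tested genes). Cd300lf, an inhibitory receptor of the CD300 family, read 1.67, 2.59 and 1.75 against 0.47, 0.23 and 0.0, a difference of 1.77 (SE 0.33; limma's adjusted p 0.237). Bhlhe41, a transcription factor that B-1a cells need, read 1.76, 0.12 and 2.17 against -3.58, -4.78 and -1.42, a difference of 4.61 (SE 1.31). Its second probe differed by 3.78 with no IL-10- array well above background, so that value is not a fold. Ptpn22, a phosphatase that restrains antigen receptor signalling, was at least 3.65-fold higher. The other 6 B-1 cell genes had a negative difference, among them Sox4 (-1.35) and Cd5 (-0.91). Of 16 plasmablast effectors 12 had a positive difference, with a median of 0.41 over the 6 arrays and 1.1 within the first slide. The 4 negative ones included Ccr10 (-1.76) and Sdc1 (-1.65). Without overlap, 5 plasmablast effectors were higher and 1 lower, against 4.75% and 4.7% of all tested genes. The 14 plasma cell switch factors had 12 positive differences and a median of 0.31, with 1 gene higher without overlap (4.75% of all tested genes). Prdm1 was at 0.18 and Xbp1 at 0.09.

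Surface ligands and signalling genes were mixed. Of 18 TNF-family costimulators, 9 had a positive difference and the median was 0. Within the first slide 11 were positive and the median was 0.38, so the list has no settled direction. Arrays did not overlap for 4, all higher (4.75% of all tested genes). Cd70, the ligand of CD27, read 0.98, 0.39 and 0.13 against -2.86, -1.32 and -6.55, a difference of 4.08 over all 6 arrays and 2.59 without the IL-10- array of the second slide. Of 21 selectin ligands, integrins and homing receptors, 17 had a positive difference, with a median of 0.37. Selplg was the 1 member called, where 0.016% of all tested genes were called. Itgal, the alpha chain of LFA-1, read 3.16, 3.02 and 3.79 against 2.18, 1.31 and 2.18, a difference of 1.43 (SE 0.45; limma's adjusted p 0.919). Of 18 measured genes on a list of Toll-like receptors and their signalling partners, 15 had a positive difference, with a median of 0.53. Tlr4, the receptor of LPS, was not among the measured members, which included Tlr1, Tlr2, Tlr6, Tlr7 and Tlr9. Without overlap, 3 members were higher and 1 lower, against 4.75% and 4.7% of all tested genes. In B cell receptor signalling 14 of 23 were positive, with a median of 0.21. Blk, a Src-family kinase of B cells, read 3.76, 3.84 and 3.57 against 2.94, 1.93 and 2.21, a difference of 1.36 (SE 0.45; limma's adjusted p 0.95), opposite in sign to Blnk.

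The lists that hold the called genes Lgr4 and Epb41l1, and the list that holds Csf2rb2, which was not called, were mixed in direction. Their counts and medians include these genes. In the Lgr4, R-spondin and Wnt list, 14 of 25 genes were measured and 5 had a positive difference, with a median of -0.16. Lgr4 was the 1 gene called, where 0.016% of all tested genes were called. In the protein 4.1 family, 7 of 10 members were positive with a median of 0.17, and Epb41l1 was the 1 gene called, against the same 0.016%. The lists were chosen with earlier results of these data known, so a called member is no result about its list. Among common beta chain cytokine receptors, 4 of 10 were positive with a median of -0.17.

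Cholesterol synthesis had most of its members on the lower side: 20 of 24 genes had a negative difference, and the median was -0.41 over the 6 arrays and -0.5 within the first slide. None was called, and 1 gene was lower without overlap, near the 4.7% of all tested genes. Mvd and Msmo1, both enzymes of the pathway, had differences of -1.32 and -1.70, with limma's unadjusted p at 0.0632 and 0.0855. Genes of mitosis had a median of -0.31 and those of DNA replication -0.18, with 7 of 22 and 10 of 27 positive, and within the first slide the medians were -0.43 and -0.4. Immediate early genes were balanced at a median of -0.01, with 12 of 24 positive. Among them, Nr4a1, a nuclear receptor induced by antigen receptor signals, read -0.14, 0.58 and 1.35 against 1.55, 2.38 and 2.24, a difference of -1.46 (SE 0.45; limma's adjusted p 0.912). The unfolded protein response, to which Dnajb9 belongs, had 18 of 24 positive differences and a median of 0.26. Within the first slide 14 were positive and the median was 0.14. In the type I interferon response 12 of 22 were positive, with a median of 0.23 and 4 genes higher without overlap (4.75% of all tested genes). Ifit1, an interferon-induced RNA-binding protein, read 1.96, 2.39 and 1.82 against 0.18, -0.93 and -2.29, a difference of 3.07 (SE 0.58; limma's adjusted p 0.241). The 38 cytosolic ribosomal proteins had a median of 0.02.

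**Figure D4:**
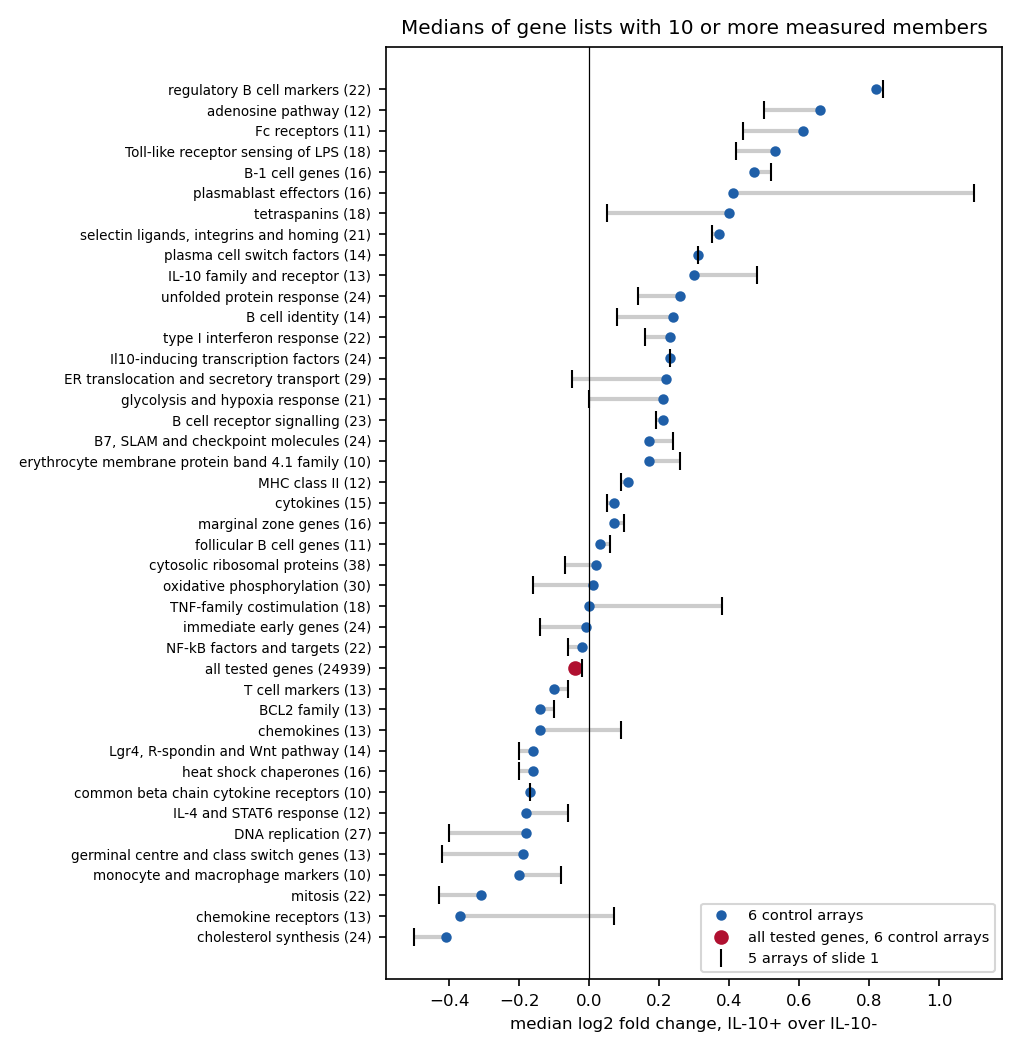
Median difference between IL-10+ and IL-10- cells (log2, horizontal axis) of each gene list with at least 10 measured members, over the 6 control arrays (dots) and within the first slide (ticks), with the median of all tested genes in red. Regulatory B cell markers lie highest at 0.82 and cholesterol synthesis lowest at -0.41.

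Markers of B cells were present on both sides of the sort. Of 14 B cell identity genes, 13 were well above background on all 6 arrays, and the log2 of their summed signal was 6.72 to 6.79 in IL-10+ and 6.41 to 6.56 in IL-10- cells. Other cell types were checked by the same sum. T cell markers, of which 11 of 16 were well above background on all 6 arrays, summed to 2.97 to 3.57 in IL-10+ and 3.5 to 3.77 in IL-10- cells, with Cd8b1 at background throughout. Neutrophil markers, 1 of 12 detected on every array, summed to 0.11 to 1.17 and 0.06 to 0.27, with Ltf, Mmp9 and S100a8 at background. For monocytes and macrophages, 7 of 13 were detected on every array and the sums were 8.58 to 9 and 8.57 to 8.73, with Ccr2 and Mrc1 at background. Dendritic cell markers, 6 of 13 on every array, summed to 6.17 to 6.42 and 6.06 to 6.51, with Clec9a, Itgax and Sirpa at background. NK cell markers, 4 of 12 on every array, summed to 3.41 to 3.99 and 3.46 to 4.69, with Gzmb, Klrd1 and Klrk1 at background. Stromal markers, 3 of 12 on every array, summed to 3.08 to 3.46 and 2.34 to 2.99, the one list of other cells whose sum was higher on every IL-10+ array, with Acta2, Col1a1 and Pdgfra among those at background. Mast cell and basophil markers, 1 of 10 on every array, summed to 0.68 to 1.37 and 1.12 to 2.16, and erythroid and platelet markers, 3 of 13, to 1.68 to 1.79 and 1.5 to 1.92. A sum of linear signals is set mostly by its brightest gene. For monocytes and macrophages that gene was Itgam, at 8.54 to 8.96 over the control arrays. For dendritic cells it was Siglech, at 5.76 to 6.36, and for stroma Pecam1, at 2.15 to 3.37. The sums therefore do not measure the share of other cells. What part these cells have in the differences was not tested.

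The same sort from HDM mice gives values from other samples for the leading genes. Of the 12 higher genes, 11 had a positive difference in HDM mice and 8 had an unadjusted p under 0.05 in that direction, against 7.71% of all tested genes. Limma called 5 of them there, of 42 genes in all (0.168%). Their median was 3.78 in control and 2.69 in HDM mice. Side by side, the difference in control and in HDM mice was 6.56 and 8.61 for Il10, 4.80 and 4.24 for Cd9, 6.46 and 7.23 for Jchain, and 3.67 and 2.89 for Lgr4. For Mt2 it was 5.80 and 0.34, for Epb41l1 3.04 and 0.52, and for Fars2 4.28 and -2.18, the exception in sign. Of the 12 lower genes, 5 had a negative difference in HDM mice, 2 with an unadjusted p under 0.05 against 5.58% of all tested genes, while 5 passed that threshold in the positive direction against 7.71%. The median was -3.08 in control and 0.8 in HDM mice. Dnajb9 was at -1.69 and -1.62, and Blnk at -1.57 and -1.54. Those 2 were also the lower genes that every control array detected. The genes were chosen by the p of the control contrast, whose spread was fitted to all 12 arrays. The p-values in HDM mice use that same spread, so the counts at a p threshold there are not independent of the choice. A smaller value in HDM mice is no tested difference.

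**Figure D5:**
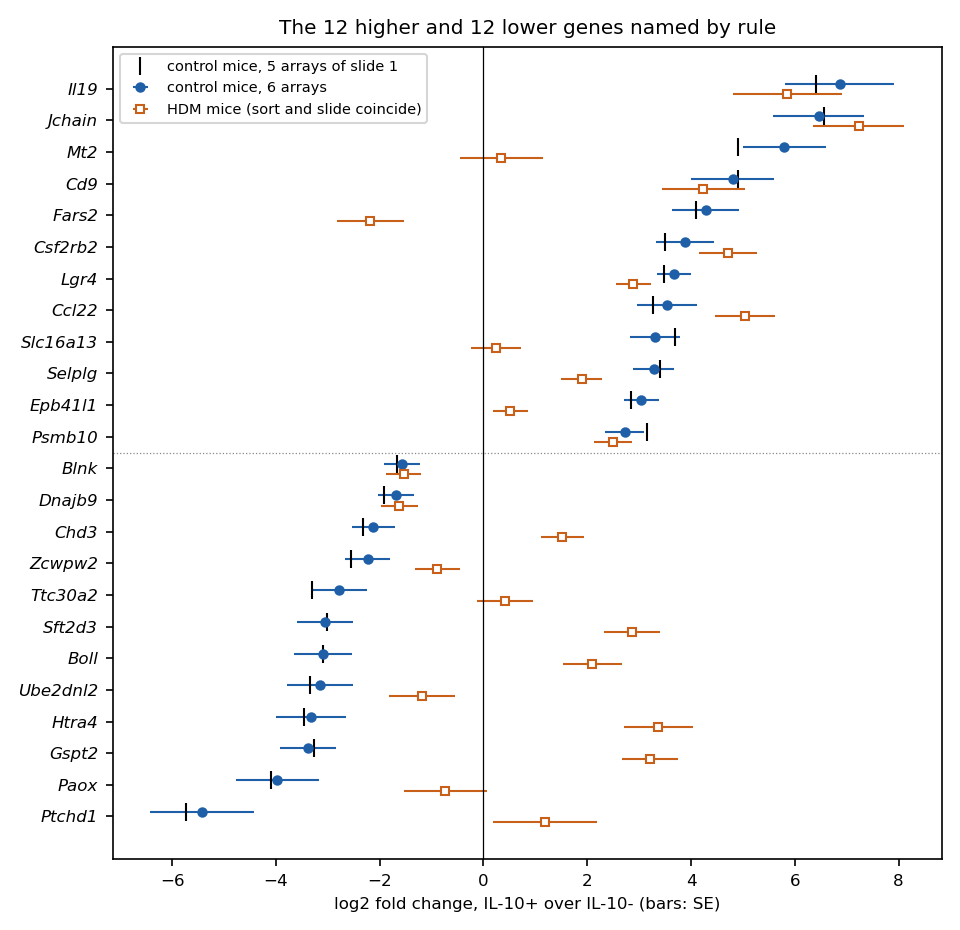
Difference between IL-10+ and IL-10- cells (log2, horizontal axis) of the 24 leading genes in control mice (blue circles, with SE), within the first slide (ticks) and in HDM mice (orange squares, with SE). Of the 12 higher genes 11 are also positive in HDM mice, while 5 of the 12 lower genes are also negative there.

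A test of the difference between the contrasts, control minus HDM, called 3 genes (0.012%), and 1611 (6.46%) had an unadjusted p under 0.05. The genes were ENSMUST00000100326 at 4.62 (SE 0.49; limma's adjusted p 0.0313), Gspt2 at -6.60 (SE 0.77; limma's adjusted p 0.0467) and Tsen54, a subunit of the tRNA splicing endonuclease, at -5.86 (SE 0.56; limma's adjusted p 0.0253). In control mice Tsen54 read 0.47, -0.08 and 0.60 on the IL-10+ arrays and 1.46, 1.16 and 0.26 on the IL-10- arrays. In HDM mice it was 0.99, 0.13 and 0.27 against -4.80, -4.90 and -4.59, so its separation was in HDM mice, where the IL-10- arrays share the second slide.

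Promoters, the 250 bases before the RefSeq start site on GRCm38.p6, were searched on both strands for TGANTCA, the AP-1 motif, for CACGTG, an E-box, and for a loose form of the NF-kB motif, GGG and CC with 5 bases of any kind between them. Of the 12 higher genes, 10 had an entry, with 12 promoters. TGANTCA was in 2 of them (16.7%), CACGTG in 2 (16.7%) and the NF-kB form in 6 (50%), against 6.75%, 6.02% and 45.8% of all 32851 promoters. Of the 12 lower genes, 8 had an entry, with 10 promoters, which held TGANTCA in 0, CACGTG in 2 (20%) and the NF-kB form in 7 (70%). These counts are too few to set apart from the shares in all promoters, and a match is a description of the letters. The promoters shown are those of the called genes Lgr4 and Epb41l1, of Cd9 and of Ccl22, with matches in capitals and the strand of the gene. They are chr2:109917397-109917646 on the plus strand for Lgr4, with no match, and chr2:156475284-156475533 on the plus strand for 1 of the 3 Epb41l1 promoters, where TGAGTCA occurs 2 times and the second runs into a match of the NF-kB form. Cd9 is at chr6:125494761-125495010 on the minus strand and Ccl22 at chr8:94745434-94745683 on the plus strand.
Lgr4: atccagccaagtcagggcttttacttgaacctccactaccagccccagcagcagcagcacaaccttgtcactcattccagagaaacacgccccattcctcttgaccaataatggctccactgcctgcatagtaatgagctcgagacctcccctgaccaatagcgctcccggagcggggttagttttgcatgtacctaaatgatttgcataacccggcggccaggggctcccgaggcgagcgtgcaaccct
Epb41l1: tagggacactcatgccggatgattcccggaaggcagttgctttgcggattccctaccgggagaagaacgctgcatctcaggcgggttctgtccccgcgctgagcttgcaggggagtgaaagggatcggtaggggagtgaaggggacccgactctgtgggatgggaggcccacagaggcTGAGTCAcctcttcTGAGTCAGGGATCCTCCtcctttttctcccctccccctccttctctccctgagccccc
Cd9: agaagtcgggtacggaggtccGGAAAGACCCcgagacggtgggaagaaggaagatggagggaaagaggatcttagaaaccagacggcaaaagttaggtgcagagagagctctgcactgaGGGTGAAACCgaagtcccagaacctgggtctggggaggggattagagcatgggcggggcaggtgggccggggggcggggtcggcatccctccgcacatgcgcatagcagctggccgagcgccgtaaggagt
Ccl22: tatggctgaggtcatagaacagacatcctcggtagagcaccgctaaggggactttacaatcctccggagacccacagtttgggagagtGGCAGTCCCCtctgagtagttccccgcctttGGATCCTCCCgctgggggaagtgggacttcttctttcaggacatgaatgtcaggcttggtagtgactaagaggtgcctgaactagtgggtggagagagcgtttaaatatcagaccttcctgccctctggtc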

How the data were processed

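Per the labels, cDNA was made from bead-isolated mRNA, amplified by PCR (SuperAmp, for small cell numbers) and labelled with Cy3; amplification can add spread to dim transcripts. Per the file headers, arrays of Agilent design 028005 (annotation mm9) were read with Feature Extraction 10.7.3.1. The deposited intensity is the processed signal, background-subtracted and not normalised between arrays; intensities of spot and local background are also given, and the flags are other values per the file headers. The authors' deposited table gives each signal as a ratio to its array median, as recomputation showed (largest deviation 0.00077%).

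Control spots were left out. Of 55681 probes, 37643 were well above background on at least 3 of the 12 arrays and had a spot without an outlier flag; no spot was saturated. Log2 signals were centred on each array's 75th percentile and the brightest probe per gene was taken, giving 24939 genes, 10734 of them without a symbol. Names came from the files' accessions through RefSeq (27509 probes) or by symbol. Limma 3.58.1 in R 4.3.3 fitted 4 group means to 12 arrays (8 residual degrees of freedom), tested on simulated data. The number of arrays limits the precision. The main fit took the arrays as unpaired. A check of the labels' replicate numbers compared only arrays of the same number, so it cannot exclude a pairing. Alternatives covered the samples fitted, slide, replicate block, background, normalization, filter, floor, probe choice, array weights and variance prior, and leaving out each array; a fit to all 8 arrays of the first slide was added after the data were seen.

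Named genes were Il10, Cd9, called genes, the 12 higher and 12 lower genes with the smallest p and no overlap, 6 detected in a single sort each way, up to 4 members of each list by p, and the called interaction genes; others say so. The members and lists were chosen with earlier results of these data known.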

Additional observations from a re-analysis of the deposited data

Results flagged for a closer look

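The IL-10+ against IL-10- difference of 3 genes was not the same in control and HDM mice by limma's test of the difference between the contrasts (control minus HDM). ENSMUST00000100326 gave 4.62, with detection on the IL-10+ control arrays and on none of the HDM arrays. Gspt2 gave -6.6, with -3.39 in control and 3.21 in HDM mice. Tsen54 gave -5.86, with -0.63 in control and 5.23 in HDM mice. In HDM mice the sort coincides with the slide, and with slide as a block limma called 0 interaction genes. The cause was not tested.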

How the results depend on the processing

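The count of called genes in control mice, 4, was 0 with the 6 control arrays alone, with the 5 of the first slide and with a robust, trended variance prior, 2 with the array median as scale or with no filter on dim probes, 7 with quantile normalization, 10 with normexp background (2 of them shared) and 12 with array weights. Leaving out each array gave a lowest count of 1, when IL-10+ control array 3 was out, and a highest of 7, when IL-10- HDM array 3 was out. With a replicate block the count was 1, and 0 over the 6 control arrays; Il10 stayed at 6.56 (limma's adjusted p 0.272). The check of the pairing gave correlations of 0.11, 0.15 and 0.03 between arrays of the same number. Arrays of different numbers were not compared, so these values cannot exclude a pairing.

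Il10 was called with normexp (6.32), array weights (6.44), without IL-10- HDM array 3 (6.56) and over the 8 arrays of the first slide (6.25, chosen after seeing the data), 4 of 28 alternatives; its difference ranged from 6.25 to 6.83 and limma's adjusted p from 0.000466 to 0.729. Cd9 was called with normexp (3.14) and array weights (4.65). Leaving out each array, ENSMUST00000100326 was called 12 times of 12, Lgr4 11, Epb41l1 4 and Selplg 3. The 3 interaction genes became 0 with slide as a block, the replicate block, normexp, quantile normalization, the array median, averaged or separate probes and the robust prior; leaving out each array gave 0 to 14 (14 without IL-10- HDM array 1). Of 1846 values over 66 genes, 1 reversed, Stat3 at -0.14 with averaged probes; the cause was not tested. Medians of gene lists kept their sign over 20 settings for regulatory B cell markers (0.51 to 1.01) and cholesterol synthesis (-0.68 to -0.26), while chemokine receptors (-0.37) changed sign in 7. Values near background are bounds.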
